A study of Mus musculus with 8 samples.

Results

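Solute carriers (gene symbols beginning with Slc or Slco) are membrane proteins that move sugars, amino acids, metals, nucleosides, inorganic ions and many metabolites across the plasma membrane and the membranes of organelles. Most work as facilitators, exchangers or cotransporters without splitting ATP themselves, and members of 1 family usually share a substrate class. In stromal cells such as fibroblasts they feed biosynthesis, keep cell volume and pH, load the secretory pathway with the sugar donors used on matrix proteins, and connect the cytosol with the mitochondrial matrix. The genes described here were chosen by symbol and by a mean log2 normalized expression of at least 1 (a linear value of about 2). In all, 186 genes met both conditions, out of 199 rows with a solute carrier symbol and 12589 rows in the table. The expression limit alone was met by 11733 of the 12589 rows, so passing it is not particular to transporters. Since the mean log2 expression itself chose them, their levels are given as a description and were not tested.

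The RNA-seq was performed on the murine spleen stromal cell line mSSC, in the labels mSSC-YFP, an immortalized line that carries a yellow fluorescent protein. Of the 8 samples, 4 received the vehicle DMSO and 4 received BMS493, an inhibitor of retinoic acid signaling, for 48 h. The labels do not say whether samples of a group came from separate cultures, and a single line is 1 source of cells. The value used here is the authors' mean over all 8 samples, in which DMSO and BMS493 are pooled, so that it is neither a control level nor a treated level. The deposited table holds only this mean and the authors' own comparison, and values of single samples were not analysed here. The depth of each library, the spread between samples and the difference between treatments are therefore not given, and close levels cannot be put in order beyond error. In bulk RNA, fewer cells with a transcript and less of it in each cell cannot be told apart.

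Markers of fibroblastic stroma were all above the same limit of 1, as were most rows of the table. The authors' mean log2 expression was 13.29 for Col1a1, 9.87 for Col3a1, 8.03 for Vcam1, 7.72 for Thy1, 6.45 for Pdgfrb and 5.24 for Pdgfra. Among markers of other cells, the endothelial Pecam1 had 0.47. Values for Ptprc, Cd79a, Cdh5 and Epcam, which mark blood cells, B cells, endothelium and epithelium, were not analysed here.

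The authors' mean log2 expression grows with transcript length, so levels were compared between genes only after division by the length of all annotated exons of a gene. The resulting level per kb is on a linear scale, in normalized reads (which add up to 989369 over all rows) per kb of exon, unless the log2 scale is named. Across the 186 transporter genes the median log2 level per kb was 2.37, the quartiles were 1.10 and 3.63, and values ran from -2.08 to 8.0. For the 11592 rows at or above the same limit that could be given a length, the median was 3.00 with quartiles of 1.74 and 4.26, and values ran from -3.11 to 11.93. Transporter transcripts lay lower at the median and did not reach the top of the table. Their levels were concentrated in few genes. The highest gene held 10.4% of the summed level per kb of all 186, the 5 highest held 29.4%, the 10 highest 40.7% and the 20 highest 55.4%. Only 2 genes reached 100 per kb, 54 lay from 10 to 100, 112 from 1 to 10, and 18 below 1.

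**Figure D1:**
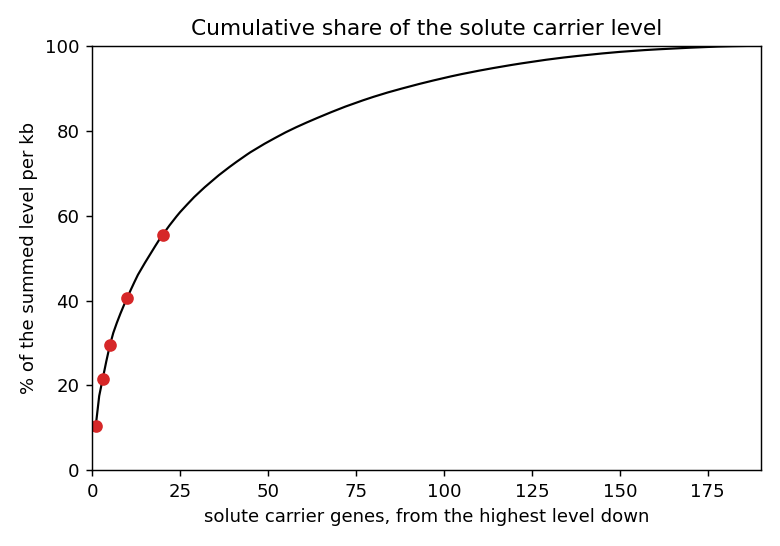
Cumulative share (%) of the summed level per kb of exon, with the 186 solute carrier genes ordered from the highest level down on the x axis; red points mark 1, 3, 5, 10 and 20 genes. The curve is steep at first, with 55.4% of the sum in the 20 highest genes.

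By substrate, the mitochondrial carriers of the Slc25 family made up the largest part, 35.4% of the summed level per kb from 38 genes. Amino acid transporters followed with 20.4% from 26 genes. The inorganic ion group, which includes the scaffold genes Slc9a3r1 and Slc9a3r2, held 11% from 30. Transporters of zinc, iron and other trace metals held 9.92% from 21. The nucleotide sugar group held 8.82% from 22 genes. It is the whole Slc35 family, taken by symbol, and also holds genes with another substrate, such as the ATP/ADP exchanger Slc35b1. By coding length the ion group held 7.98%, below metals with 13.4% and nucleotide sugars with 9.61%. Without the scaffold genes the ion group held 7.45% of the sum over the remaining members. Sugar transporters held 3.11% (7 genes) and nucleoside and nucleobase transporters 2.4% (4 genes). The remaining groups were choline and fatty acids (2.6%, 6 genes), organic anions, cations and hormones (2.13%, 13 genes), vitamins (1.32%, 6 genes) and monocarboxylates and other organic acids (1.19%, 4 genes). Genes placed in none of these groups formed a rest group (1.68%, 9 genes). In reads not divided by length, the order of the leading groups was the other way round, with 27.9% for amino acids and 24.7% for Slc25. The median exon length was 6480 bases for the amino acid transporters and 3980 bases for Slc25.

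A group's share and its typical gene were different things. The median log2 level per kb was highest for the nucleoside transporters (3.71), followed by nucleotide sugars (2.95), metals (2.85) and amino acids (2.79), while Slc25 with 2.43 was near the median of all transporters. The order of these medians depended on the setting, since metals passed nucleotide sugars with either of the other lengths, and choline and fatty acids passed nucleosides with a limit of 2 on the mean log2 expression. Amino acids passed nucleotide sugars by coding length, and passed both nucleotide sugars and metals with the limit of 2. The median was 2.24 for sugars, 2.17 for choline and fatty acids, 2.02 for ions, 2.00 for vitamins, 1.61 for organic ions and hormones, 1.61 for the rest group and 1.09 for organic acids. This lower part of the order also depended on the setting. By the longest transcript, choline and fatty acids, ions and vitamins passed sugars. By coding length vitamins passed sugars, and with the limit of 2 ions and the rest group did. The genes of a group spread widely. The log2 range from the lowest to the highest gene was 8.60 in Slc25, 7.86 in amino acids, 7.80 in ions, 5.52 in metals and 4.83 in nucleotide sugars, and narrowest in vitamins, 2.57.

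**Figure D2:**
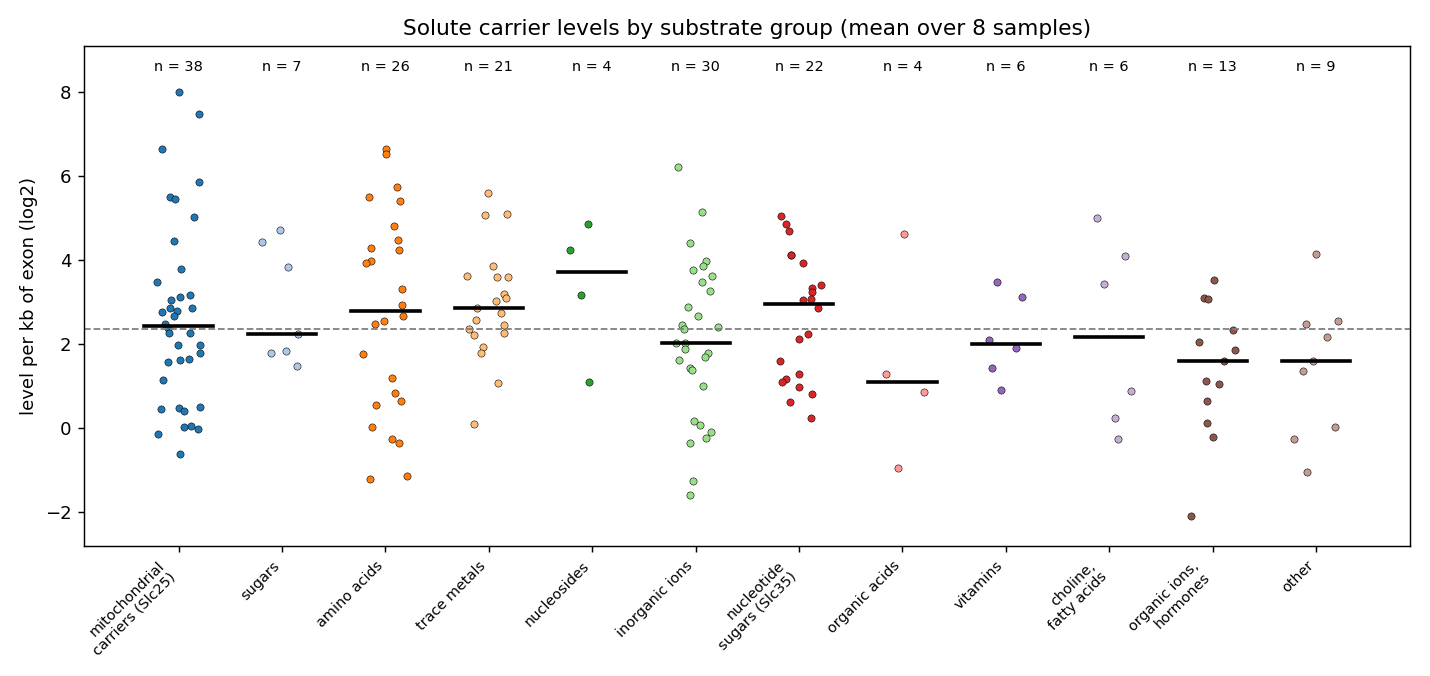
Log2 level per kb of exon (y axis) of each of the 186 solute carrier genes, by substrate group (x axis); points are genes, black bars group medians and the dashed line the median of all, 2.37. Slc25 holds the highest points, up to 8.0, although its median of 2.43 is close to the dashed line.

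The groups also differed in how many of their annotated genes were among the 186. GENCODE M21 lists 381 coding genes with such symbols, of which 199 had a value and 48.8% were members. The share was 81.5% for nucleotide sugars (22 of 27), 80.9% for Slc25 (38 of 47) and 70% for metals (21 of 30). It was 47.6% for ions (30 of 63), 44.4% for nucleosides (4 of 9) and 42.6% for amino acids (26 of 61). The lowest shares were 30.4% for sugars (7 of 23), 23.5% for organic acids (4 of 17) and 23.2% for organic ions and hormones (13 of 56). Within organic ions and hormones, Slc22, a family best known from kidney and liver, had 6 members among 25 annotated genes. The families Slc13, Slc28, Slc32, Slc34 and Slc47 and the groups Slco1, Slco4, Slco5 and Slco6 had no member. Within Slc28, the concentrative nucleoside transporters, Slc28a3 had a mean log2 expression of 0.86, below the limit.

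**Figure D3:**
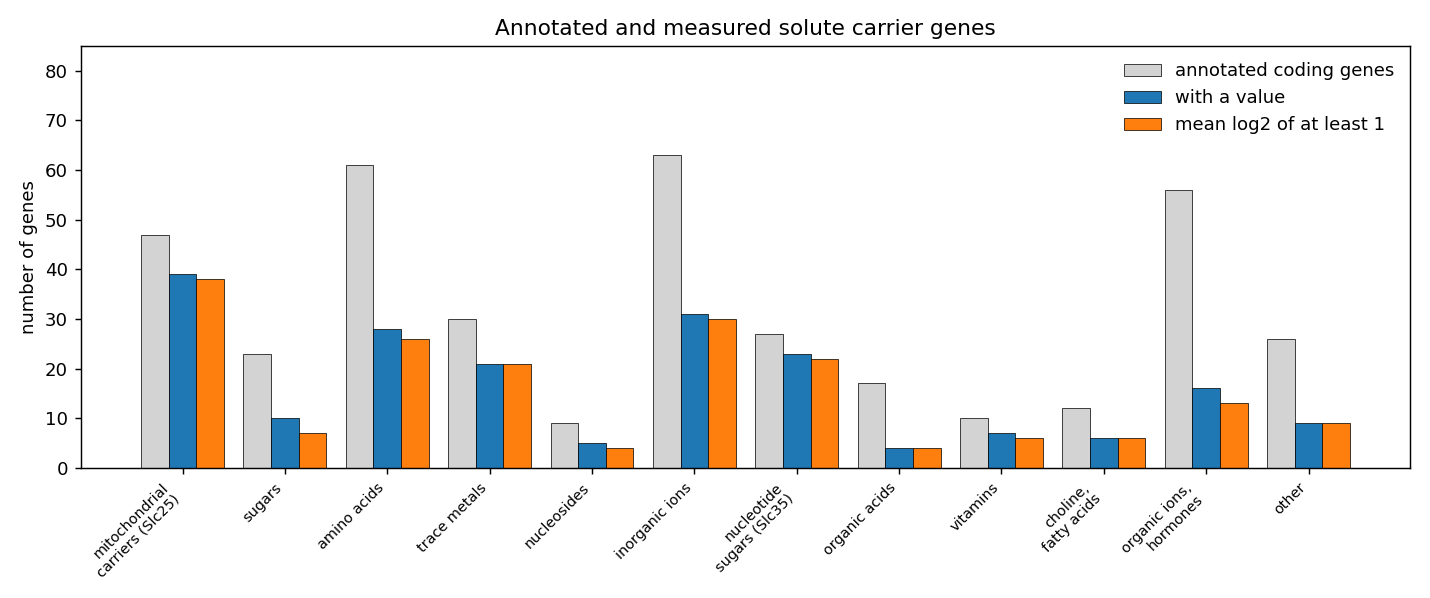
Number of genes (y axis) per substrate group (x axis) that are annotated as coding, have a value, and have a mean log2 expression of at least 1. The orange bar is close to the grey one for Slc25 and Slc35 (38 of 47 and 22 of 27), against 13 of 56 for organic ions and hormones.

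Per kb of exon, the highest mitochondrial carriers were the ADP/ATP carriers, which exchange ATP made in the matrix for cytosolic ADP. Slc25a4 (ENSMUSG00000031633.4, chromosome 8, 46206797 to 46211284 of GRCm38, minus strand) had the highest level of all transporters, 255 per kb from a mean log2 expression of 9.23. Slc25a5 (ENSMUSG00000016319.3, chromosome X, 36795651 to 36798807, plus strand) had 177 per kb, with a mean log2 expression of 8.19. Together these paralogs held 17.5% of the summed level. Slc25a4 is known from heart and muscle and Slc25a5 from dividing cells, and both were abundant in this line. The ratio of Slc25a4 to Slc25a5 was 1.44 per kb of exon and 2.06 per coding base.

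Because the study counted uniquely mapped reads, the letters of the ADP/ATP carrier transcripts decide how well reads can be assigned. Both coding sequences have 894 bases without the stop codon and are 77.4% identical, with 202 differing bases and a longest identical run of 20 bases. The most alike stretch of 100 bases, the length of a read in the study, is printed 5′ to 3′ from the GENCODE M21 transcripts, with the bases that differ between the genes in capitals. It covers coding bases 28 to 127 in exons 1 and 2, spliced, and lies at 46209493 to 46210895 on chromosome 8 (minus strand) for Slc25a4 and at 36795758 to 36796858 on chromosome X (plus strand) for Slc25a5.
Slc25a4: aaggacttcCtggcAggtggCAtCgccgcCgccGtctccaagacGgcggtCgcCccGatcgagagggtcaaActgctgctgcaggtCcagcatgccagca
Slc25a5: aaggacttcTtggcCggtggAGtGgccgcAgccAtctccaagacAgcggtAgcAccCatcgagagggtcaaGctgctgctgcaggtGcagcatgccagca
Even here 13 bases differ. No window of 100 bases of Slc25a4 occurs exactly in a transcript of another gene, whereas 8.33% of those of Slc25a5 do, most often in Gm5560. The effect of such shared windows on the level of Slc25a5 was not tested.

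The phosphate carrier Slc25a3 (chromosome 10, 91116574 to 91124059), which supplies the phosphate for ATP synthesis, had 99.7 per kb. Its ratio to Slc25a4 was 0.39 per kb of exon and 0.766 per coding base, and per kb of coding sequence it had 515, between Slc25a4 with 672 and Slc25a5 with 326. Next were, per kb of exon, Slc25a39, which imports glutathione into mitochondria, with 58, the citrate carrier Slc25a1 with 45.6, the oxoglutarate carrier Slc25a11 with 43.9 and the ATP-Mg/phosphate carrier Slc25a24 with 32.7. The 3 highest genes held 60.9% of the family's sum. The other 35 had a median log2 level of 2.27 and ran from 0.657 to 58 per kb, so that the family joined a few very abundant carriers with many of ordinary level. The aspartate/glutamate carriers of the malate-aspartate shuttle were alike, with 8.95 for Slc25a13 and 6.82 for Slc25a12, and their order turned over when coding length was used (ratio 1.31 per kb of exon, 0.68 per coding base). The mitoferrins, which bring iron into the matrix for heme and iron-sulfur cluster synthesis, had 7.26 for Slc25a37 and 6.89 for Slc25a28, a ratio of Slc25a28 to Slc25a37 of 0.95 per kb of exon but 0.549 per coding base. At the lower end, Slc25a29, Slc25a27 and Slc25a53 had 0.98, 0.901 and 0.657 per kb of exon. The lowest carrier was Slc25a27 by the longest transcript (1.23) and Slc25a43 by coding length (2.45).

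Per kb of exon and by the longest transcript, the highest amino acid transporters were the parts of 1 heterodimer, whereas Slc38a2 was highest per coding base. Slc3a2 (chromosome 19, 8706882 to 8723369), the CD98 heavy chain that carries light chains of the Slc7 family to the cell surface, had 99.7 per kb. Slc7a5 (chromosome 8, 121881150 to 121907694), its light chain LAT1 for large neutral amino acids, had 92.1 per kb. Their ratio was 1.08 per kb of exon and 0.934 per coding base, so neither could be placed above the other. Per kb of coding sequence, Slc38a2 had 309, Slc7a5 222 and Slc3a2 208. The other light chains that pair with Slc3a2 were lower. Slc7a6 had 19.4, Slc7a7 3.42 and the cystine/glutamate exchanger Slc7a11 1.48 per kb. Slc7a11 has 13922 bases of exon, of which much is not coding, and the ratio of Slc7a5 to Slc7a11 fell from 62.3 per kb of exon to 16.3 per coding base. In all, 4 light chains were members, with a sum of 116 per kb against the 99.7 of the heavy chain.

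Several transporters of small neutral amino acids were also high. Slc38a2 (chromosome 15, 96687392 to 96699730), a carrier for alanine, glutamine and related amino acids, had 52.9 per kb, Slc38a10 had 45.7 and Slc38a1, which lies 44478 bases from Slc38a2, had 15.9. The ratio of Slc38a2 to Slc38a1 was 3.32 per kb of exon and 1.64 per coding base, as Slc38a1 has 17236 bases of exon. Slc6a6, the taurine transporter, reached 42.3. The neutral amino acid exchangers Slc1a4 and Slc1a5, the latter a main route for glutamine, had 28.1 and 22.3 per kb, in an order that turned over with the longest transcript as length (ratio of Slc1a5 to Slc1a4 of 0.791 and 1.18). Of the cationic amino acid transporters, Slc7a1 had 19 and Slc7a2 7.6. The glutamate transporter Slc1a3 had 1.02, and the lysosomal arginine sensor Slc38a9 had 0.451. Slc38a9 has 16704 bases of exon, against 1680 in its longest coding sequence. It was the lowest amino acid gene by the longest transcript, whereas Slc6a15 was lowest per kb of exon and by coding length.

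**Figure D4:**
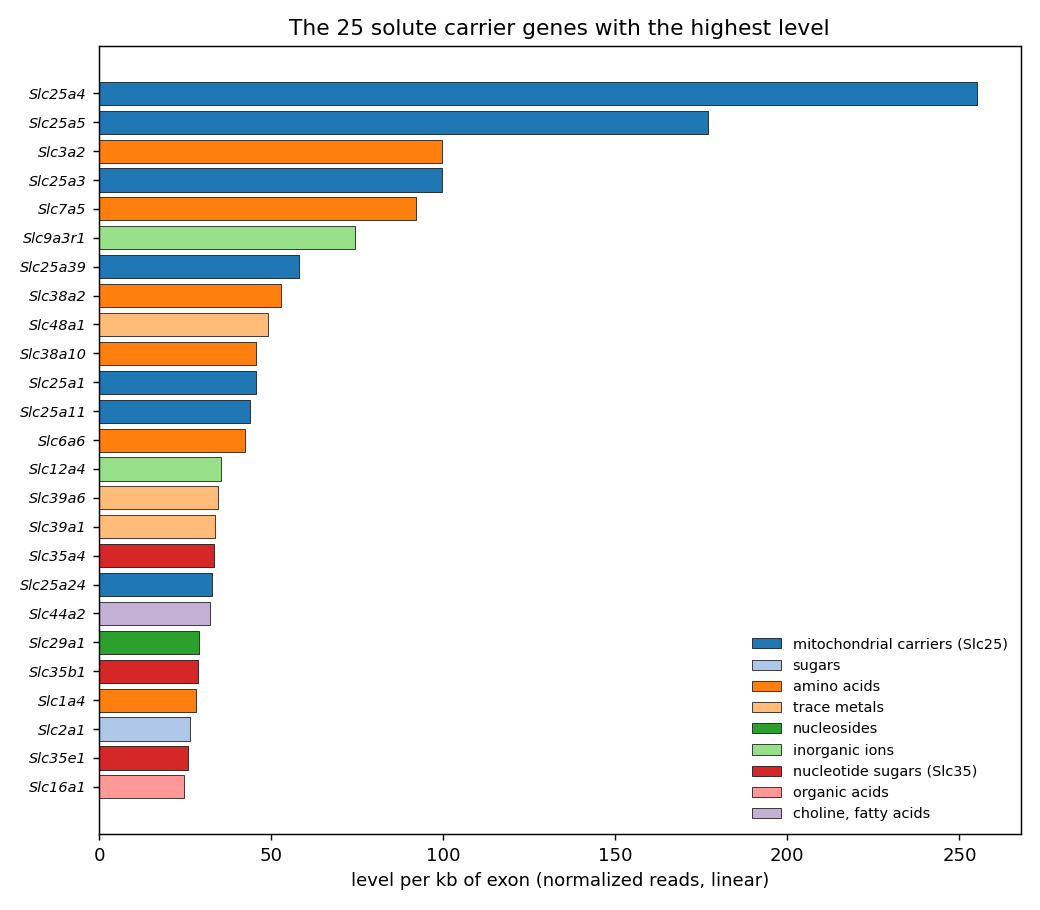
Level per kb of exon (x axis, linear, normalized reads per kb) of the 25 solute carrier genes with the highest values, coloured by substrate group. Slc25a4 (255) and Slc25a5 (177) stand above a step at Slc3a2, Slc25a3 and Slc7a5, which lie between 92.1 and 99.7.

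Promoters were read for the members that RefSeq's table of GRCm38.p6 holds, 144 of 186 genes with 197 start sites, each a window of 300 bases around the start, most of it upstream. The amino acid response element, to which ATF4 and C/EBP proteins bind when amino acids are short, was searched as TGATGNAA on both strands. It was in 13.3% of the 30 promoters of amino acid transporters and 4.06% of all member promoters. The share was 2.11% for promoters of all rows above the limit and 3.97% for all 32851 promoters. Of the other groups, sugars had 11.1% (9 promoters), organic ions and hormones 11.1% (9 promoters) and inorganic ions 6.67% (30 promoters). The remaining groups had no match. The 4 amino acid transporter promoters with a match belonged to Slc7a11, Slc1a4 and Slc7a7, the last with a pair of overlapping windows. The metal response element, the binding site of the zinc sensor MTF-1, was searched as TGCACNC and TGCGCNC on both strands. Of the 19 metal transporter promoters, 47.4% held it, against 34% of member promoters, 36.5% of promoters of all rows above the limit and 25.7% of all promoters. Groups with no tie to metals held it more often, with 66.7% of the 9 sugar transporter promoters, 55.6% of the 9 for choline and fatty acids and 50% of the 8 of the rest group. It was rarest in the amino acid group, in 6.67%. These are matches of letters and not shown binding sites.

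The promoters of Slc7a11 and Slc1a4 (amino acids) and Slc30a1 (zinc export) are printed 5′ to 3′ as they hold matches of the motif searched for their group, which is in capitals. They were picked after their matches were seen. The windows are chr3:50443564-50443863 (minus strand), chr11:20332664-20332963 (minus strand) and chr1:191906531-191906830 (plus strand).
Slc7a11: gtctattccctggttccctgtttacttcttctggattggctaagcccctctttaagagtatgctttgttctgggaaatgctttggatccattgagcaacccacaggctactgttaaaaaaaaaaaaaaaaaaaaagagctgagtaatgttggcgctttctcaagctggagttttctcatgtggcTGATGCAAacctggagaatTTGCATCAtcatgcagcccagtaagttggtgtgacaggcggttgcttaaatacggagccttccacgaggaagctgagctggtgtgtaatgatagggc
Slc1a4: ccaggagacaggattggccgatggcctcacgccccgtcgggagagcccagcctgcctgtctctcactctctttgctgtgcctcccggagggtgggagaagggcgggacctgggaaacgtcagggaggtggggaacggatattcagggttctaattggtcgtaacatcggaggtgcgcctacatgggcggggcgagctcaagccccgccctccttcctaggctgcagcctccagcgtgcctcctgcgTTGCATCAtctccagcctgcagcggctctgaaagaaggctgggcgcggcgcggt
Slc30a1: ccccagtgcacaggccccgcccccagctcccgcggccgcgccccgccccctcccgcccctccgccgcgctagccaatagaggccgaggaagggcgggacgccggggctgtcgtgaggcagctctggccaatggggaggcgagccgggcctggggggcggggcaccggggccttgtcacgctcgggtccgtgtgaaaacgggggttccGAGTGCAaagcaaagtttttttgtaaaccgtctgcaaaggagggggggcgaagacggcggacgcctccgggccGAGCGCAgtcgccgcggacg
Slc7a11 holds 2 amino acid elements, 1 on each strand, and has 4 CpG dinucleotides. Slc1a4 holds 1 such element and 21 CpG, and Slc30a1 holds 2 metal elements and 36 CpG. The levels of these genes were 1.48, 28.1 and 2.1 per kb, so that genes with matches were both among the high and among the low ones. The median observed-to-expected CpG ratio was 0.652 for member promoters, 0.769 for all rows above the limit and 0.384 for all promoters.

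Zinc transport was represented by importers and exporters. The Slc39 family, which moves zinc into the cytosol, had 10 members with a sum of 125 per kb and a range of 3.49 to 34.6. The Slc30 family, which moves zinc out of the cytosol or into vesicles, had 6 members, a sum of 45.2 and a range of 2.1 to 14.5. The highest importers were Slc39a6 (34.6 per kb) and Slc39a1 (33.6), in the other order by coding length, and the highest exporters per kb of exon were Slc30a4 (14.5) and Slc30a5 (12.1), which load vesicles and the secretory pathway. Slc30a1, the exporter of the plasma membrane, had the lowest level of its family, 2.1 per kb. For Slc39a1, 14.8% of the 100-base windows recur in the pseudogene Slc39a1-ps, and for the endoplasmic reticulum transporter Slc39a7 (4.63 per kb) 68.9% recur in Gm20427, so its level is uncertain.

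Iron and heme genes differed in level. Slc48a1 (chromosome 15, 97778520 to 97792692), which moves heme out of endosomes and lysosomes, led the metal group with 49 per kb. Slc39a14, an importer of zinc and of iron not bound to transferrin, had 8.14 (ratio of Slc39a1 to Slc39a14 of 4.13 per kb of exon and 1.4 per coding base), and Slc11a2, the divalent metal transporter of the endosome, had 7.23. Slc40a1 or ferroportin, the only known iron exporter, had 1.07 per kb and ranked 163 among the 186 genes. It was the lowest metal gene per kb of exon and by coding length, whereas Slc30a1 was lowest by the longest transcript. The copper importer Slc31a1 had 12.2 per kb, and its neighbour Slc31a2, 62315 bases away, had 5.12.

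Among sugar transporters, 1 glucose facilitator had the highest level. Slc2a1 or GLUT1 (chromosome 4, 119108711 to 119137983) had 26.3 per kb, 34.3% of the sugar group, and ranked 23 among all transporters. The neuronal facilitator Slc2a3 had a mean log2 expression of 0.91, just below the limit, and the ratio of Slc2a1 to Slc2a3 was 102 per kb of exon and 49.3 per coding base. Slc50a1 of the SWEET family had 21.6 and Slc37a3, of the sugar phosphate exchangers, 14.4. The glucose 6-phosphate transporter of the endoplasmic reticulum, Slc37a4, had 3.43. Of the facilitators, Slc2a10 and Slc2a8 were lower, at 4.73 and 2.77.

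Transcripts for lactate and pyruvate transporters were uneven. Slc16a1 or MCT1 (chromosome 3, 104638668 to 104658462) had 24.6 per kb, 83.7% of the organic acid group. Slc16a3 or MCT4, the exporter of strongly glycolytic cells, had 0.521, a ratio of 47.3 per kb of exon and 37.6 per coding base. Slc16a13 and Slc16a4 had 2.46 and 1.83. Bsg, the chaperone that carries Slc16a1 to the surface, is not a solute carrier and had 313 per kb (12.7 times Slc16a1 per kb of exon, 6.6 times per coding base), whereas Emb, the alternative partner, had 3.87.

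The nucleoside transporters above the limit were equilibrative ones of Slc29, with 1 nucleobase transporter. Slc29a1 or ENT1 (chromosome 17, 45585200 to 45599606) had 29.1 per kb, 49.1% of its group. Slc43a3, a purine nucleobase transporter, had 18.9, the lysosomal Slc29a3 9.09 and Slc29a2 2.13. The ratio of Slc29a1 to Slc29a3 was 3.2 per kb of exon and 5.2 by the longest transcript.

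Among inorganic ion genes, the symbol rule also took in Slc9a3r1 and Slc9a3r2. They encode the scaffold proteins NHERF1 and NHERF2, which bind transporters and are not carriers. Slc9a3r1 had 74.5 per kb, the sixth-highest level of all members, and Slc9a3r2 21.4. Without this pair the ion group held 7.45% of the sum over the remaining members, in place of 11%. The remaining 28 ion genes ran from 0.333 to 35.4 per kb, with a median log2 level of 1.95. The highest was Slc12a4, a potassium chloride cotransporter used in volume regulation, with 35.4. The chloride/bicarbonate exchanger Slc4a2 had 15.9 and the potassium-dependent sodium/calcium exchanger Slc24a3 14.6. The phosphate importers Slc20a1 and Slc20a2 had 12.4 and 9.57, a ratio of 1.3. Slc12a2, the sodium potassium chloride cotransporter, had 5.46 per kb, and its ratio to Slc12a4 was 0.154 per kb of exon and 0.354 per coding base.

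The Slc35 family, which makes up the nucleotide sugar group, had no dominant gene. Slc35a4 had 33.3 per kb, Slc35b1, which exchanges ATP for ADP at the endoplasmic reticulum, 28.8, and Slc35e1 25.9. By the longest transcript Slc35b1 passed Slc35a4. The highest gene held 15.3% of the group, and none of the 22 lay below 1 per kb. Slc35b2, which brings the sulfate donor PAPS into the Golgi for sulfation of proteoglycans, had 15.4, and the CMP-sialic acid transporter Slc35a1 had 10.7.

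In the smaller groups, the choline transporters Slc44a2 (32.2 per kb) and Slc44a1 (17.3) were above the fatty acid transporter Slc27a4 (10.9). The vitamin carriers with the highest levels per kb of exon were Slc19a2 for thiamine (11.2), Slc19a1 for folate (8.71), which was first by the longest transcript, and Slc23a2 for ascorbate (4.3), the cofactor of collagen hydroxylation. Among organic ion genes the orphan Slc10a3 had 11.5, Slc22a23 8.61 and the prostaglandin transporter Slco2a1 8.46, which was first with either of the other lengths. The creatine transporter Slc6a8 had 17.7, the polyamine transporter Slc18b1 5.8 and Slc15a4, a lysosomal histidine and peptide transporter, 5.54.

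The members near the limit on mean log2 expression were Slc27a6 with 1.06, Slc9a9 with 1.26 and Slc46a3 with 1.32 inside it, and Slc4a11 with 0.95, Slc25a35 with 0.92 and Slc2a3 with 0.91 outside it. In the genome, 8 pairs of members lay within 100 kb of each other, and 6 of them belonged to 1 family. Neighbours could differ or be alike in level. Slc25a43, which lies 18448 bases from Slc25a5 on chromosome X, had 1.41 per kb against 177. Slc25a29 and Slc25a47, on opposite strands with 162 bases between them on chromosome 12, had 0.98 and 1.01. Of the organic cation and carnitine transporters on chromosome 11, Slc22a5 had 4.11, Slc22a21 1.56 and Slc22a4 1.09, and 12.9% of the 100-base windows of Slc22a5 occur exactly in Slc22a21. Of all 186 members, 122 had no window shared with a transcript of another gene and 14 shared at least 10%.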

How the data were processed

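The 8 samples were grouped by their titles into 4 with DMSO and 4 with BMS493. According to the study's methods, stranded single-read mRNA libraries were sequenced and mapped with STAR (2.3.0e in the submitters' processing notes) against mm10. Rsubread tallied unique alignments per Ensembl gene, and TMM scaling followed. The authors deposited 1 table. Of its columns, the mean log2 normalized expression over all samples was used, with decimal commas converted. The other 4 columns hold the authors' own comparison of BMS493 and DMSO (log2 fold change, t, p and adjusted p) and were not used. None of these columns holds values of single samples, which the planned test needed, so it could not be run. Back on the linear scale, the values added up to 989369, about what CPM would give. The filter on low genes and any count added before logs are not given in the sources used here. Reads from antisense genes can be told apart only if counting used strand, which is not stated.

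Symbols were matched to GENCODE M21 (GRCm38), the same assembly as mm10. All 186 members matched, 1 of them, Slc24a6, through its RefSeq synonym. Level per kb is 2 raised to the mean log2 expression, divided by the kb of merged exons. Lengths of the longest transcript and of the longest coding sequence, limits of 0 and 2, and leaving out each group's leading gene were the alternatives, and leaving out Slc9a3r1 and Slc9a3r2 was added after seeing the data. Shared windows are exact matches of 100 bases, on either strand, in transcripts of other genes. This search and the length step were tested on simulated sequences. Substrate groups were written by hand from symbols. Genes named are the 3 highest per group, a fixed list of well-known transporters with Bsg and Emb, and the 3 genes on each side of the limit, and other genes were added after their values were seen. Some genes under this rule are not reported here. The members, groups and lists were chosen with earlier results of these data known. Python 3.11.15, numpy 2.4.6, pandas 2.3.3 and matplotlib 3.10.9 were used.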

Additional observations from a re-analysis of the deposited data

How the results depend on the processing

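No paired analysis was possible because the values used here are 1 mean over all samples. For the same reason leaving out samples was not run, and the depth and the error of every level are unknown. Of the results below, a share, a group median relative to the median of all members, or a ratio was taken as moved when it changed by over 1.5 times. With a limit of 0 or 2, the number of members stayed within that range of 186 (199 and 169). Without the leading gene, the share of the summed level fell to 2.07% for sugars, 1.24% for nucleosides, 0.197% for organic acids, 0.869% for vitamins, 1.31% for choline and fatty acids and 0.972% for the rest group, and the relative median of choline and fatty acids from 0.866 to 0.36. That median rose to 2.36 with a limit of 2, which leaves fewer of the 6 genes. With coding length, the relative median was 0.24 for organic acids (0.41 before) and 0.372 for organic ions and hormones (0.588 before). The order of 3 pairs turned over, with ratios of 0.934 for Slc3a2 over Slc7a5 and 0.68 for Slc25a13 over Slc25a12 by coding length, and of 1.18 for Slc1a5 over Slc1a4 by the longest transcript. Other ratios kept their order but moved. By coding length these were Slc25a3 over Slc25a4 (0.39 to 0.766), Slc25a28 over Slc25a37 (0.95 to 0.549), Slc39a1 over Slc39a14 (4.13 to 1.4), Slc38a2 over Slc38a1 (3.32 to 1.64), Slc12a2 over Slc12a4 (0.154 to 0.354), Slc2a1 over Slc2a3 (102 to 49.3), Slc7a5 over Slc7a11 (62.3 to 16.3) and Bsg over Slc16a1 (12.7 to 6.6). By the longest transcript they were Slc39a1 over Slc39a14 (2), Slc38a2 over Slc38a1 (2.02), Slc30a1 over Slc30a5 (0.174 to 0.0952) and Slc29a1 over Slc29a3 (3.2 to 5.2). The gene with the highest level was the same in all 3 lengths for 8 of 12 groups, and differed for amino acids, nucleotide sugars, vitamins and organic ions. Among group medians relative to all members, metals passed nucleotide sugars by the longest transcript (1.48 and 1.21) and by coding length (1.86 and 1.37), and choline and fatty acids passed nucleosides (2.26) with a limit of 2. Amino acids passed nucleotide sugars by coding length (1.41 and 1.37). With a limit of 2, amino acids (1.5) passed nucleotide sugars (1.33) and metals (1.25). By the longest transcript, choline and fatty acids (0.899), ions (0.856) and vitamins (0.797) passed sugars (0.678). By coding length, vitamins (0.685) passed sugars (0.631). With a limit of 2, ions (0.885) and the rest group (0.86) passed sugars (0.814). The causes of these moves were not tested beyond the lengths and genes that define each setting. Across the lengths and limits tried, Slc25 held 33.3 to 35.7% and amino acid transporters 20.3 to 22% of the summed level. With the leading gene of the group left out, these shares were lower, at 28% for Slc25 and 17% for amino acid transporters. By coding length the share of ions was 7.98%, below metals (13.4%) and nucleotide sugars (9.61%). Leaving out Slc9a3r1 and Slc9a3r2 gave ions a share of 7.45%.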
